A study of Mus musculus with 4 samples.

Results

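The sites described here are intergenic sites of open chromatin that carried an ATAC-seq peak in every library of the series, in primary mouse chondrocytes and after 8 passages alike. In ATAC-seq the Tn5 transposase inserts sequencing adapters where DNA is accessible, and regions with many inserted fragments are read as open chromatin. Peaks that overlapped by at least 1 bp were merged, which gave 170325 sites on chromosomes 1 to 19 and X. Of these, 55259 held a peak of all 4 libraries. A site counted as intergenic when it lay outside protein-coding genes, over 1 kb and at most 250 kb from the nearest gene end, and 17512 of the 55259 sites did. The other sites open in all 4 libraries comprised 13788 gene-end sites, at or within 1 kb of either end of a gene, 22445 gene-body sites and 1514 gene-desert sites over 250 kb away. Membership was set by the peak calls themselves, so the presence of a peak at both passages is no finding. A site that fell below the limit of peak calling at either passage is not among them.

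Chondrocytes had been isolated from knee articular cartilage of newborn C57BL/6 mice, aged 0 to 4 days after birth. P0 cells had been in primary culture for less than 24 h, and P8 cells had been passaged 8 times, each time after the cell number doubled. Each passage had 2 libraries, and both passages shared strain, tissue and medium. Nothing in the labels says whether the libraries of a passage came from separate cultures, so p-values measure only the spread between these libraries. The peak lists separate the libraries but give them no replicate number, and they are named P0 A, P0 B, P8 A and P8 B here. Where 4 values follow each other without a label, they are in that order, and where a pair of values is given for a passage, library A comes first.

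Intergenic open sites hold many enhancers, the regulatory elements that bind transcription factors and act on promoters over a distance, along with insulators and the promoters of non-coding genes. Chondrocytes, the cells that make the cartilage matrix, lose that phenotype when they are expanded in monolayer culture, a change called dedifferentiation. A nearest gene is given below as an address of a site, and whether the site acts on that gene was not measured.

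The value used for a site is the fold enrichment of its highest peak in a library, the pileup of tags at the summit over the local background as MACS2 computed it. For comparisons between libraries it was turned into a percentile, the rank of the site among the 55259 sites of that library. The number of peaks was 145703, 119974, 89610 and 99784. The lowest local background was 1.42, 1.18, 1.02 and 0.979 tags, so both P8 libraries were shallower. Chondrocyte markers had peaks at gene ends for 7, 7, 6 and 6 of 7 genes. Of 4 blood and macrophage markers, Cd68 alone had such peaks, in both P0 libraries, and Ptprc, Adgre1 and Csf1r had none in any library. Fibroblast markers had peaks for 4 and 4 of 4 genes at P0 and for 3 and 2 at P8. Of the endothelial markers Kdr had peaks in all 4 libraries and Pecam1 and Cdh5 had none. The muscle marker Myod1 had peaks in all 4 libraries and Myog had 1 in P0 A. The epithelial marker Epcam had peaks in both P0 libraries and Krt5 had none.

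Of the intergenic sites, 565 covered part of the start of a long non-coding RNA (lncRNA) and 13 covered a microRNA hairpin, and RefSeq sequences of these are shown because they are the members whose DNA or product has a known sequence here. The lncRNA windows are the RefSeq stretches from 250 bases before to 50 bases after an annotated start, in build GRCm38.p6, written 5′ to 3′ on the strand of the RNA. Capitals mark the letters of searched motifs on either strand, which were AP-1 TGANTCA, RUNX TGTGGT, TEAD GGAATG, ETS CCGGAAG, SOX ACAATGG and CTCF CCACNAGG, and matches of different motifs were allowed to overlap. Gm5546, at chr3:104360269-104360568 on the minus strand, lay wholly in a site that rose at P8. Gm28231, at chr9:88259637-88259936 on the plus strand, and Gm41504, at chr16:94713858-94714157 on the minus strand, were covered over 300 and 285 bases by sites that fell. Firre, at chrX:50635272-50635571 on the minus strand, was covered by a site in the upper ranks of every library, and none of the motifs was found in its window or in that of Gm28231.

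Gm5546: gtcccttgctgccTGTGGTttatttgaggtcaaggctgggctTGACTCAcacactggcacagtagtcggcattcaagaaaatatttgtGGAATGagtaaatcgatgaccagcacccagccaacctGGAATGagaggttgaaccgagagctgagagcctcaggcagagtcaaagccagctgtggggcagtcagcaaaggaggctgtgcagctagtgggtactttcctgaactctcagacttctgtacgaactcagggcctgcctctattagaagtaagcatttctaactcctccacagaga
Gm28231: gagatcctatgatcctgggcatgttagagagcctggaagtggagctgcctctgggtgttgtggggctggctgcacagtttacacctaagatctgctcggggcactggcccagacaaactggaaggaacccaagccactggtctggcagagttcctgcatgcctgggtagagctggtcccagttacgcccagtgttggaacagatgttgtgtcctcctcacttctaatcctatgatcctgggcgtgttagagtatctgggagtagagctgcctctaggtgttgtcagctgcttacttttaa
Gm41504: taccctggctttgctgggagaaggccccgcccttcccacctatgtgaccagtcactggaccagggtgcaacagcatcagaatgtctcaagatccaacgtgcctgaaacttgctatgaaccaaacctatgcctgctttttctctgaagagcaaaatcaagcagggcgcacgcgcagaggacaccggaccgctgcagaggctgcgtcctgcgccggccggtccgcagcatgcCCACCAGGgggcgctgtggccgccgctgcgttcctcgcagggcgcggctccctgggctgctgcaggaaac
Firre: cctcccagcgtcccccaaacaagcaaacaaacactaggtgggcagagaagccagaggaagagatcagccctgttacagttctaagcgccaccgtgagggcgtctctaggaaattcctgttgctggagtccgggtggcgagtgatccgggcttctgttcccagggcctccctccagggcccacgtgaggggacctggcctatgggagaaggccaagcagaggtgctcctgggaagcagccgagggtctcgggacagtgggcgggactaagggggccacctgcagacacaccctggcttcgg

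For the microRNAs, capitals mark the seed, bases 2 to 8 of the mature strand, which pairs with targets. The 2 microRNAs miR-132-3p and miR-212-3p lie under or at the edge of 1 site and share the seed AACAGUC. The seeds of miR-322-5p and miR-503-5p, which also lie in 1 site, are AGCAGCA and AGCAGCG.

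let-7i-5p: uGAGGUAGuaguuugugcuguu
miR-132-3p: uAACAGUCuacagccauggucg
miR-212-3p: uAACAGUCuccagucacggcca
miR-322-5p: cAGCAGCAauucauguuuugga
miR-503-5p: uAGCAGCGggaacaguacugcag

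The first comparison set the intergenic sites beside sites at genes within each library. Intergenic sites ranked below gene-end sites and slightly above gene-body sites in all 4 libraries. Their median percentile was 50.2, 46.8, 48.6 and 48.1. Gene-end sites had medians of 58.5 and 63.6 at P0 and 63.0 and 59.6 at P8, and gene-body sites lay between 44.5 and 45.3. The difference to gene-end sites was -8.30, -16.9, -14.4 and -11.5 percentile points, a mean of -12.8 ± 3.70 (SD, n = 4 libraries; exact two-sided sign permutation test, p = 0.13, the smallest it allows). The difference to gene-body sites was 4.91, 2.29, 3.74 and 2.96 points, a mean of 3.47 ± 1.12 (SD, n = 4; exact test, p = 0.13). Ranked by pileup instead, the mean difference to gene-body sites was -3.93 points, so the order of these classes depends on the value used. With the mean of a site's peaks in place of the highest, the mean difference to gene-end sites was -6.52 points and was not negative in every library.

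**Figure D1:**
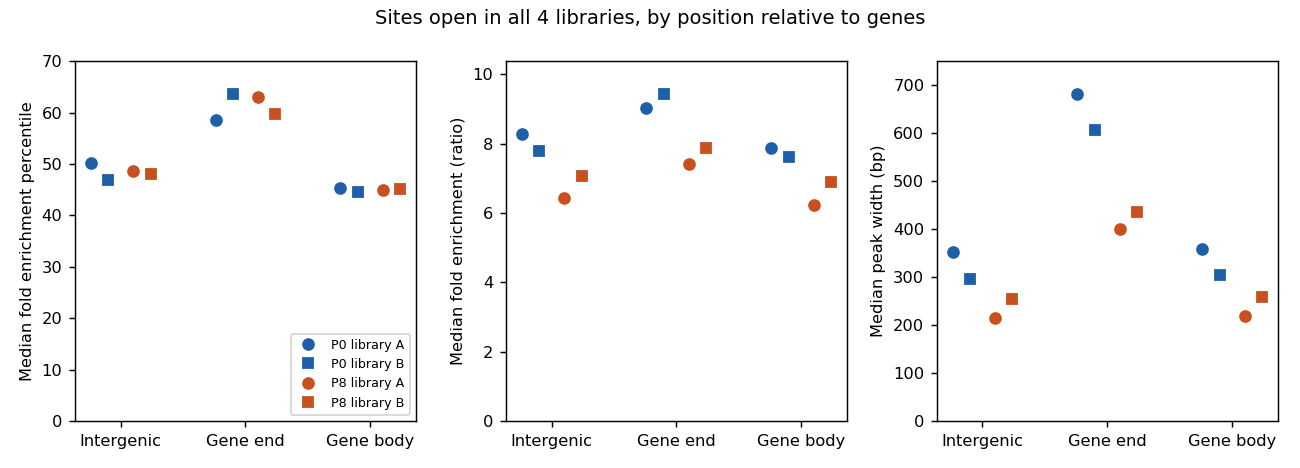
Medians over the intergenic (n = 17512), gene-end (n = 13788) and gene-body (n = 22445) sites open in all 4 libraries, for fold enrichment percentile, fold enrichment (ratio) and peak width (bp), with 1 point per library and no error bar. Intergenic percentiles sit between 46.8 and 50.2, below every gene-end median and above every gene-body median, and P8 peaks are narrower than P0 peaks in each class.

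Peaks at intergenic sites were narrower than at gene ends and close in form to those of gene bodies. In bp, their median width was 352, 295, 215 and 254, against 681, 605, 400 and 435 at gene ends and 357, 304, 218 and 257 in gene bodies. The merged site had a median width of 400 bp, and 77.7% of the sites held exactly 1 peak of every library, against 76.4% in gene bodies. The summits of the 4 libraries lay within a median range of 59 bp (61 bp in gene bodies), and in 44.7% of sites within 50 bp (43.1%). Wider sites ranked higher, with a Spearman correlation of 0.46 between site width and mean percentile across the 17512 sites, which share the same libraries and background. Summits of these sites had a median height of 25, 20, 14 and 16 tags, which set the coarse steps of the fold enrichment in the shallow libraries. Among the sites at the limits of the set, those just over 1 kb (Wnk1, Adad2, Thbd) had fold enrichments of 4.22 to 12.4 and those just under 1 kb (Gm8108, Gmpr, Ly6d) of 4.33 to 9.74. Those just under 250 kb (Tnc, Dact1, Fshr) ranged from 4.55 to 15.3 and those just over it (Lmo7, 1700010I14Rik, N6amt1) from 3.96 to 12.8.

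Libraries of 1 passage ranked the intergenic sites more alike than libraries of different passages did. The Spearman correlation of fold enrichment across the 17512 sites was 0.868 within P0 and 0.753 within P8, against 0.578 to 0.672 between passages. At gene ends the values were 0.937, 0.888 and 0.814 to 0.857. These are descriptions across sites, which share a library and its depth and are not replicates.

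The second comparison asked which of these sites differed between P0 and P8. As a class they had a median percentile of 48.5 ± 2.40 at P0 and 48.4 ± 0.348 at P8 (SD, n = 2 each) and a difference of -0.117 points (exact two-sided permutation test, p = 1). The sign of that small difference turned under several settings. Single sites moved in both directions. The limma test on quantile-normalized log2 fold enrichment called 1216 of the 17512 sites (6.94%), against 5.44% of all 55259 sites tested. Of these, 544 rose at P8 (3.11%, against 2.39% of all sites) and 672 fell (3.84%, against 3.05%). At gene ends 1.70% of sites passed, in gene bodies 6.01% and in gene deserts 13.7%, and the differences between classes were not tested. The median change of the called sites was 1.77-fold in each direction. An unadjusted p under 0.05 (limma) was found at 4768 of the 17512 intergenic sites. It was found at 1876 of 13788 gene-end, 5831 of 22445 gene-body and 554 of 1514 gene-desert sites, so it was common in other classes too.

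The counts rest on few libraries and on the scaling. With median centring in place of quantile normalization, 1324 sites rose and 825 fell, and with pileup in place of fold enrichment 1116 rose and 696 fell, so that 61.6% of the called sites were higher at P8 under each setting, against 44.7% above. Of all 55259 sites these settings called 5497 and 4966, against 3006 in the main fit, so the counts grew in the whole set too. Without P0 A or without P0 B no site passed (0 calls by limma, with 2760 and 2207 sites at an unadjusted p under 0.05), and without P8 A or P8 B 852 and 1112 did. Counted without a test, both P8 percentiles lay above both P0 percentiles at 4931 sites (28.2%, against 28.3% of all sites) and below them at 4828 sites (27.6%, against 25.8%), shares near those of all sites.

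**Figure D2:**
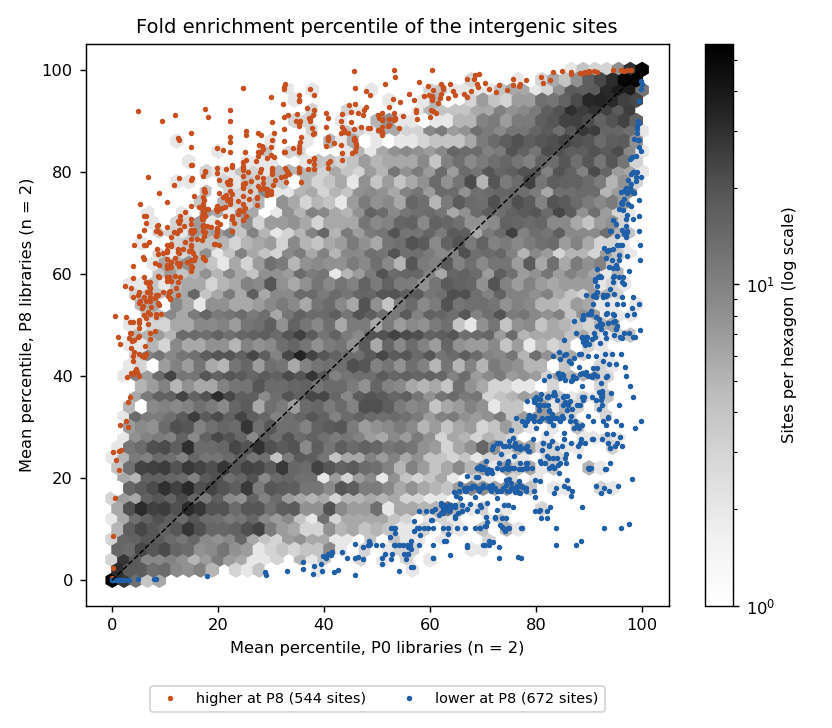
Mean fold enrichment percentile of each intergenic site in the P0 libraries (x axis, n = 2) and the P8 libraries (y axis, n = 2), with grey hexagons shaded by the number of sites on a log scale and a dashed line of equal percentile. The 544 sites called higher at P8 lie above the line and the 672 called lower lie mostly far below it, apart from a group near percentile 0 at both passages.

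Of the 8 sites with the largest rise among those called and without overlap between passages, the 7 reported here lay nearest to Mup7, Pkdcc, Srek1, Tarm1, Birc6, Gipc2 and Cdkn2a. The site 9.52 kb from Cdkn2a, which encodes the cell cycle inhibitors p16 and p19ARF, lay at chr4:89264659-89264954. Its fold enrichment was 7.86, 9.15, 20.1 and 17.5. Both P8 values were above both P0 values, a change of 1.32 on the log2 scale (SE 0.13; limma, Benjamini-Hochberg adjusted p = 0.00311). Beside Mup7, of the family of major urinary protein genes, the values were 2.90 and 4.58 at P0 and 11.1 and 11.6 at P8, a log2 change of 1.75 (SE 0.23; limma adjusted p = 0.00599). The site 3.49 kb from Pkdcc, which encodes a secreted kinase needed for skeletal growth, went from 6.00 and 3.52 to 10.0 and 12.5, with 17, 8, 23 and 27 tags at the summit. At the remaining 4 sites log2 changes were 1.46 (Srek1, a splicing regulator), 1.37 (Tarm1, a receptor of myeloid cells), 1.36 (Birc6, an inhibitor of apoptosis) and 1.33 (Gipc2). Pileups there were from 8 to 21 tags at P0 and from 20 to 39 tags at P8.

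The 8 largest falls lay nearest to Chd1l, Prdm1, Car8, Ghitm, Adgrl3, Cdh8, 0610009B22Rik and Ptprg. The site 51.9 kb from Chd1l, a chromatin remodeller gene, had fold enrichments of 15.3 and 16.4 at P0 and 4.94 and 3.54 at P8. This was a log2 change of -1.75 (SE 0.21; limma adjusted p = 0.00526), with the passages far apart. Beside Prdm1, which encodes the transcriptional repressor Blimp-1, the values were 14.2 and 15.8 at P0 and 3.96 and 5.05 at P8, a log2 change of -1.60. The site 45.3 kb from Car8 went from 18.5 and 19.6 to 5.44 and 6.06. The other 5 had log2 changes from -1.55 (Ghitm, a mitochondrial membrane protein) to -1.42 (Ptprg, a receptor tyrosine phosphatase), with Adgrl3, an adhesion receptor, and Cdh8, a cadherin, between them. At P8 these sites had from 6 to 11 tags at the summit, and at P0 from 28 to 53. All 15 sites kept their direction and passed the threshold with pileup in place of fold enrichment. Pileup is the numerator of fold enrichment, by which these sites were chosen, so this is no independent test.

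**Figure D3:**
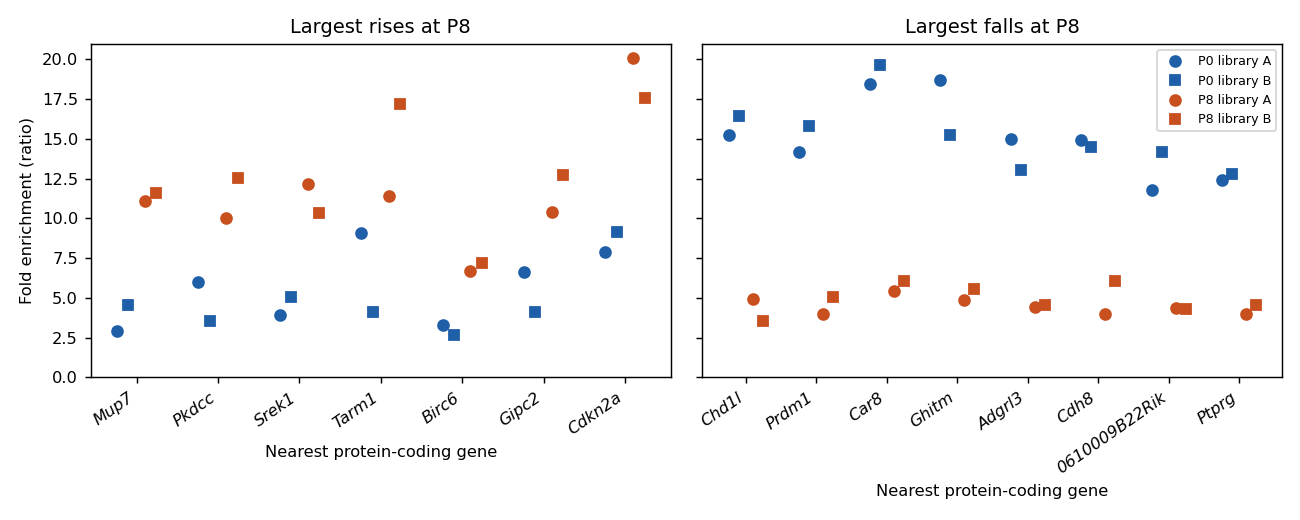
Fold enrichment (ratio) in each of the 4 libraries at 7 of the 8 intergenic sites with the largest rise (left) and the 8 with the largest fall (right) at P8, labelled by nearest protein-coding gene, with 1 point per library. The passages do not overlap at any of the 15 sites, since sites were chosen for that, and the site near Cdkn2a is the highest of the risen sites in a single library (20.1).

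Sites near genes of cartilage and of dedifferentiation passed this test about as often as other sites. The 7 gene lists held 335 intergenic sites near 62 of 82 genes, of which 5 rose and 13 fell, 5.37% in all against 5.44% of all sites tested and 6.94% of the intergenic sites. Of all sites tested 2.39% rose and 3.05% fell, and of the intergenic sites 3.11% and 3.84%. The shares of single lists below rest on few sites. The list of cartilage matrix genes had 37 sites near 11 of 16 genes, with 2 sites called higher (5.41%), 1 called lower (2.70%) and a median log2 change of -0.00106. Acan, which encodes the large proteoglycan aggrecan, had 1 of each among its 4 sites. The site 62.4 kb away had fold enrichments of 10.1 and 10.8 at P0 and 13.0 and 13.2 at P8, a log2 change of 0.59 (SE 0.13; limma adjusted p = 0.0276). Its pileup went from 77 and 72 tags to 49 and 53, and by normalized pileup its log2 change was 0.04. The site 31.3 kb from Acan went from 14.4 and 14.2 to 7.91 and 8.97, a log2 change of -0.50 (SE 0.13; limma adjusted p = 0.047), and also fell by pileup.

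The direction at Col2a1, the gene of type II collagen, depended on the measure. The site 1.44 kb from the gene had a pileup of 84 and 73 tags at P0 and of 37 and 41 tags at P8. Its fold enrichment was only 2.11, 2.24, 3.30 and 2.95, in the lowest 1% of sites, since the local background there was high. It was called higher at P8 by fold enrichment (log2 change 0.52, limma adjusted p = 0.0189) and lower by normalized pileup (log2 change -0.40, limma adjusted p = 0.0381). Of the 18 called sites in the lists it was the 1 site whose direction turned with pileup, and 10 of the 18 passed the threshold by that measure.

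Of the chondrocyte transcription factors, 9 of 10 genes had 55 sites, with 1 called higher (1.82%) and 2 lower (3.64%) and a median log2 change of -0.11. Sox9, the master regulator of chondrocytes, was nearest to 15 of them, from 23800 to 235661 bp away. Its site at chr11:112897680-112897892 rose, with fold enrichments of 5.38 and 5.95 at P0 and 7.42 and 8.59 at P8, and its site at chr11:112986107-112986617 fell, from 10.4 and 11.5 to 5.84 and 5.04. The changes were 0.71 and -0.80 on the log2 scale (limma adjusted p = 0.0487 and 0.0362), and neither passed with pileup. Another site, 213.2 kb away, stayed above percentile 90 in all libraries, with fold enrichments of 13.7, 14.1, 11.1 and 11.6. Near Trps1, a repressor active in growth plate cartilage, 1 of 4 sites fell (log2 change -0.79), and none of the 10 sites near Sox6 or the 9 near Runx1 passed.

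Of the fibroblast and degradation genes, 12 of 14 had 80 sites, with a median log2 change of 0.12. Of these sites 0 rose and 4 fell (5.0%, against 3.05% of all sites and 3.84% of the intergenic sites). The 4 were 1 site each near Tnc, Fn1, Col1a2 and Col5a2, genes of tenascin C, fibronectin and collagens of types I and V. The site 101.9 kb from Tnc changed most, from 15.8 and 13.3 at P0 to 5.44 and 5.05 at P8, a log2 change of -1.26 (SE 0.18; limma adjusted p = 0.00794). Other sites near the same genes ranked high at both passages. A site 234.5 kb from Fn1 had fold enrichments of 13.1, 14.5, 11.3 and 16.1, above percentile 90 in every library. The 3 sites near Mmp13, a collagenase gene, had log2 changes from 0.21 to 0.81, and none passed.

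The AP-1 genes, which encode stress-responsive transcription factors, had 43 sites near 8 of 10 genes and a median log2 change of 0.17. Of these sites 1 was called higher and 1 lower (2.33% each). A site 11.9 kb from Batf3 rose from 11.1 and 9.42 to 11.8 and 13.7 (log2 change 0.57, limma adjusted p = 0.0376), and 1 of 16 sites near Jun fell (log2 change -0.74). All 7 sites near Atf3 had positive log2 changes, from 0.02 to 0.65, and none passed. Of the TGF-β and BMP genes, 61 sites near 9 of 12 genes held 2 that fell (3.28%, against 3.05% of all sites) and 0 that rose. The 2 lay near the ligand gene Bmp2 and the signal transducer gene Smad3. The 14 sites near Tgfb2 had a median log2 change of -0.000496. Of the Hippo and actin genes, 26 sites near 7 of 12 genes held 1 that rose and 1 that fell (3.85% each). They lay near Ankrd1 (log2 change 0.78) and Ccn2 (log2 change -0.86), both targets of YAP. Of the inflammation genes, 33 sites near 6 of 8 genes held 0 that rose and 2 that fell (6.06%), near the chemokine genes Cxcl5 and Cxcl12.

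The sites ranked highest in every library were chosen by those ranks, which leaves little room for a difference in fold enrichment between passages. The 5 with the highest lowest percentile lay nearest to B230307C23Rik, Rab10, Cr2, Csf2ra and Pak3, from 35.2 to 194.7 kb away. Each was above percentile 99.9 in all 4 libraries, and the site near Rab10 had fold enrichments of 26.3, 27.5, 29.9 and 27.0 with 139, 139, 125 and 121 tags. Pileups of the highest-ranked sites fell less from P0 to P8 than those of other sites. Over the 44 sites above percentile 99 in every library the median ratio of P8 to P0 pileup was 0.885, against 0.690 over the 17031 sites that were not above percentile 90 in every library (ratios described without a test). By normalized pileup the sites near B230307C23Rik, Cr2, Csf2ra and Pak3 were called higher at P8 (log2 changes from 0.41 to 0.45). Repeat annotation and mappability were not analysed here, and their part in these values was not tested.

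The spacing of the intergenic sites varied widely. The median distance to the nearest gene end was 24.8 kb (quartiles 8.83 and 64.1 kb), and the sites had 7151 nearest genes, of which 3385 had 1 site and 154 had 10 or more. Trabd2b, which encodes a protease that acts on Wnt ligands, had most with 24 sites, followed by Gas1, a hedgehog co-receptor gene, with 23 and Mreg with 22. Irf2bp2 and Tle3, a corepressor gene, had 21 each, and Gadd45g, Ier5 and Rhou, which encodes a small GTPase, 18 each. Of the 18 sites near Rhou 3 fell and the median log2 change was -0.34. Counts of called sites near single genes are too small to be read against the 5.44% of all sites. Sites at most 12.5 kb apart formed 201 runs of 5 or more, which held 1271 of the sites, while 8298 stood alone. Whether this spacing differs from a random one was not tested. The 2 longest held 17 sites each, over 57.5 kb of chromosome 13 nearest to Abt1 and over 49.6 kb of chromosome 6 nearest to Gm40363.

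Rank and change both varied with distance. Sites 1 to 5 kb from a gene end (n = 2534) had median percentiles of 36.4, 37.5, 39.8 and 40.2, below those of every bin farther away, where medians were from 48.0 to 55.0. The share of sites that rose at P8 was 2.45% in that bin, 2.69% at 5 to 25 kb, 3.47% at 25 to 100 kb and 3.88% at 100 to 250 kb. The share that fell was 2.05, 3.31, 4.52 and 5.23%. Both shares were higher in each bin farther out, and no test was made across bins. Of all sites tested 2.39% rose and 3.05% fell. The bins were compared by fold enrichment only, and ranks by pileup were not computed for them.

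**Figure D4:**
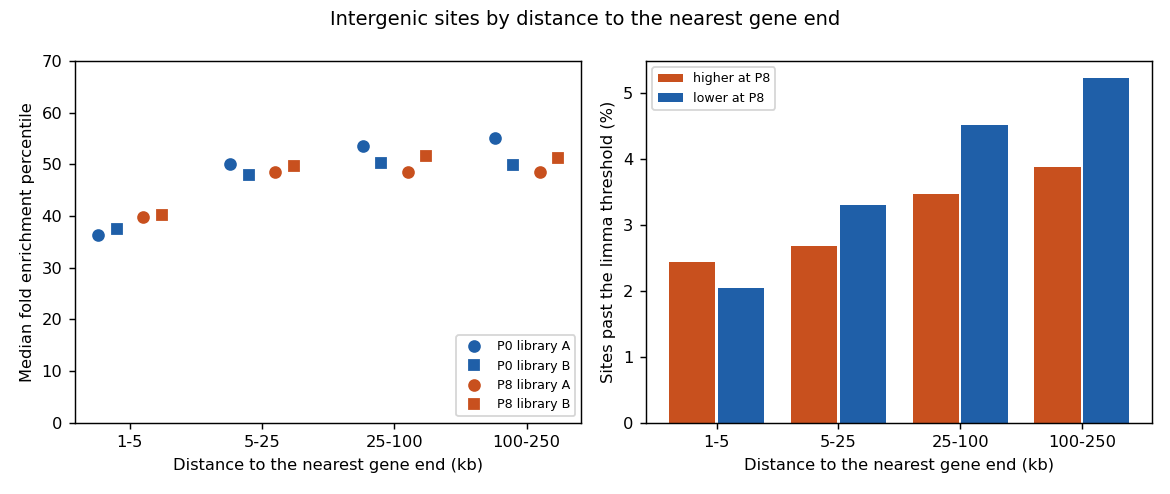
Intergenic sites by distance to the nearest gene end in kb, as the median fold enrichment percentile with 1 point per library (left) and as the percent of sites past the limma threshold at P8 against P0 (right, bars from 0). Sites at 1 to 5 kb rank lowest in all libraries (36.4 to 40.2), and the bars reach 3.88% (higher) and 5.23% (lower) at 100 to 250 kb.

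Transfer RNA genes, which RNA polymerase III reads from promoters inside the gene, lay under many more of these sites than microRNA genes did. Of 321 tRNA genes of the RefSeq table that lie in the intergenic space, 194 (60.4%) were covered by 164 intergenic sites open in all 4 libraries, and 74 of the sites lay on chromosome 13. The runs nearest to Abt1, Zfp184 and Gpx5 on that chromosome, of 17, 14 and 12 sites, held 13, 14 and 10 sites over a tRNA gene. Median percentiles of the 164 sites were 33.5 and 39.6 at P0 and 51.1 and 45.8 at P8. Both P8 values lay above both P0 values, a difference of 11.9 points (p = 0.33 by exact permutation over the libraries, two-sided, which is the lowest that n = 2 and n = 2 allow). The percentiles of 57 sites were higher at P8 without overlap and of 17 lower (34.8% and 10.4%, against 28.3% and 25.8% of all sites), while limma called 0 sites higher and 1 lower. Ranked by pileup, the same sites had median percentiles of 71.3 and 72.3 at P0 and 77.8 and 78.8 at P8. Their level among all sites thus depends on the value used, and the difference by pileup was 6.54 points. With the mean of a site's peaks the difference was 6.65 points and the passages overlapped (exact permutation p = 0.67). The median fold enrichment itself was 6.96, 7.19, 6.53 and 6.97, and over all intergenic sites it was 8.28, 7.78, 6.43 and 7.07, a larger drop. The site that fell, 3.16 kb from Ncoa7, covers the tRNA gene n-TEctc9 and went from 16.4 and 17.5 to 8.81 and 9.79, a log2 change of -0.62 (SE 0.12; limma adjusted p = 0.0186).

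**Figure D5:**
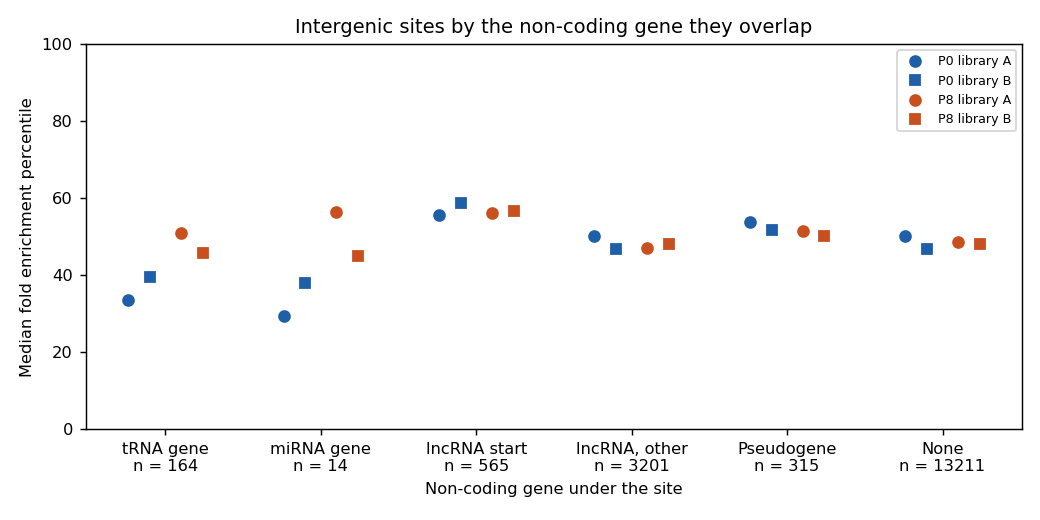
Median fold enrichment percentile of the intergenic sites in each library, grouped by the non-coding gene of the RefSeq table they overlap, with 1 point per library and the number of sites under each group, where a site over genes of several kinds counts in each. The 164 sites over tRNA genes lie at 33.5 and 39.6 at P0 and 51.1 and 45.8 at P8. Medians of the 14 sites over microRNA genes were 29.3 and 37.9 at P0 and 56.3 and 44.99 at P8. The 13211 sites over no non-coding gene lie between 46.8 and 50.2.

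A microRNA gene was overlapped by 14 sites, and 13 held a hairpin of the sequence table. None of these few sites was called, where 5.44% of all sites were. Median percentiles of the 14 sites were 29.3 and 37.9 at P0 and 56.3 and 44.99 at P8. The difference of 17.1 points was not tested. The percentiles of 8 sites were higher at P8 without overlap and of 0 lower (57.1% and 0%, against 28.3% and 25.8% of all sites). A higher median percentile at P8 was thus also seen in this small set. The site over the Mir1983 hairpin belongs to both sets, since it also covers the tRNA gene n-TItat14. The site over the let-7i hairpin, of the let-7 family that restrains growth genes, had fold enrichments of 6.34, 6.56, 7.29 and 6.79, which puts both P8 values above both P0 values (log2 change 0.35, SE 0.19; limma adjusted p = 0.299). The site that covers the miR-212 hairpin and the first part of the miR-132 hairpin, with their shared seed above, ranked low throughout, with 3.43, 3.38, 3.55 and 3.57. The site over miR-322 and miR-503 was 2000 bp wide, with 4.48, 4.94, 3.68 and 5.29. The most open was the site over Mir713, at 13.5, 13.6, 13.5 and 13.8.

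The 565 sites at lncRNA starts covered windows of 572 lncRNAs and had median percentiles of 55.6, 58.8, 56.2 and 56.7, with 7 sites called higher and 11 lower at P8 (1.24% and 1.95%, against 2.39% and 3.05% of all sites). Firre and Kantr, both on the X chromosome, were among the highest. The site at Firre, an RNA that binds chromatin, had fold enrichments of 14.2, 15.95, 13.4 and 13.2, and that at Kantr of 18.3, 19.3, 13.9 and 16.7. The site at Gm5546, whose window is shown above, rose from 10.5 and 11.1 to 14.4 and 12.5 (log2 change 0.57, limma adjusted p = 0.0350). Gm28231 went from 17.1 and 18.3 to 7.42 and 9.09 (log2 change -0.87, limma adjusted p = 0.00845), and Gm41504 from 14.5 and 18.0 to 7.42 and 7.71 (log2 change -0.85, limma adjusted p = 0.0134). The largest rise at a start was at Gm31164, 199.9 kb from Maf, from 4.72 and 4.07 to 9.07 and 9.52 (log2 change 1.25, limma adjusted p = 0.010), where the site covers 40 bases of the window.

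Letters of the AP-1 motif, which the Fos and Jun proteins bind, occurred in 13.7% of the 635 lncRNA windows at these sites, against 9.31% of all 11575 lncRNA windows and 7.81% of all 32851 RefSeq start windows of the same 300 bases. The CTCF letters, of the insulator protein, occurred in 8.50% against 4.86% and 4.99%. RUNX letters were in 127 of the 635 windows, against 20.1% of lncRNA and 16.8% of all windows, TEAD at 19.1% against 16.6% and 14.7%, ETS at 6.77% against 3.90% and 8.86% and SOX at 2.20% against 5.01% and 3.66%. The windows also differed in composition, with a median of 7 CpG against 4 over all lncRNA windows and 52.3% GC against 48.3%, and the part of composition in these shares was not tested. Of the sites that rose, 3 of 8 lncRNAs had AP-1 letters in a window (Gm5546, Gm40436 and Mir670hg, whose 4 windows overlap), and of those that fell 0 of 11 did. Counted by window, 11 at risen and 11 at fallen sites, AP-1 letters were in 6 and 0. Other letters were in 1 and 4 (TEAD), 0 and 3 (ETS), 2 and 0 (SOX), 1 and 2 (RUNX) and 1 and 2 (CTCF). These small counts were not tested, and some risen sites covered little of a window (40 bases at Gm31164, 64 at Gm46178). A match is a run of letters and not a bound site.

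Intergenic sites on the X chromosome (n = 326) ranked lower at P8 than at P0. Their median percentile was 61.7, 56.4, 48.6 and 48.1, while the 17186 autosomal sites were at 50.2, 46.8, 48.6 and 48.1. The excess over autosomes was 11.6 and 9.67 points at P0 and 0 points in both P8 libraries, where the medians fell on the same step of the fold enrichment. Ranked by pileup, X minus autosomes was 0 and 3.07 points at P0 and -5.80 and -10.3 points at P8, so that the sites on X were then lower at P8 and not clearly higher at P0. The difference between passages was -10.6 points (p = 0.33 by exact permutation, again the lowest possible). It was -3.24 points for gene-end and -7.26 points for gene-body sites on X, so it was not limited to intergenic sites. Of the 326 sites 7 were called higher (2.15%) and 24 lower (7.36%), against 2.39% and 3.05% of all sites tested. The number of X copies per cell in each library was not analysed here.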

How the data were processed

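ATAC-seq libraries of mouse chondrocytes at P0 and P8 (2 each) were analysed from the deposited peak lists. The authors used Bowtie2 for alignment of paired-end reads and MACS2 for peak calling library by library (build mm10 per the labels). Deposited values of a peak are the summit pileup, which is a signal in tags without scaling for depth, and the fold enrichment, a ratio to the local background. The −log10 p-value and −log10 q-value were also deposited. The lists were made by peak calling and so hold nothing below its limit. A further deposited table with the log2 fold change, p-value and FDR of the authors' DiffBind comparison was not used. Tool versions are not given in the sources used here. Read totals were not used, so depth is known only through the local background.

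Peaks of the 4 libraries were merged at an overlap of 1 bp and placed by distance to 21627 protein-coding genes (RefSeq table, GRCm38.p6). The table carries no strand here, so both gene ends counted. The highest fold enrichment of a site in each library was ranked as a percentile. Log2 fold enrichment was quantile normalized over 55259 sites and tested with limma 3.58.1 (R 4.3.3; lmFit, eBayes with trend), with Benjamini-Hochberg adjustment over all 55259 sites and a threshold of 0.05. A count model was not used since the files hold no counts per site. Library medians were compared by exact permutation tests, whose smallest p is 0.33 for 2 against 2 libraries and 0.13 for 4 paired differences. Members and gene lists were chosen with earlier results of these data known. The sites named are the 5 highest by lowest percentile, the 8 largest called rises and falls without overlap (1 rise is not reported here), the 8 genes with most sites, those nearest the distance limits, and the list genes with most or with called sites. Sites over tRNA and microRNA genes, lncRNA starts and X were singled out after values were seen. Sequences come from RefSeq tables of GRCm38.p6. Motifs at site summits, which were planned, were not analysed. Merging, placing and limma were tested on simulated data. Other peak thresholds, distances, gene sets, values and scalings were tried. Scripts ran in Python 3.11.15 (pandas 2.3.3, numpy 2.4.6, scipy 1.17.1, matplotlib 3.10.9).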

Additional observations from a re-analysis of the deposited data

How the results depend on the processing

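Of 90 alternative values, 75 kept the sign of a difference or, for counts, stayed near the main count. Neither p-values nor the direction of called sites entered this rule. The number of limma calls with pileup was among the 75, though 61.6% of those calls were higher at P8, against 44.7% in the main setting. The P8 minus P0 difference in median percentile of the intergenic sites, -0.117 points, turned positive with genes of every biotype (0.586), sites with 1 bp covered by all 4 libraries (0.166), pileup (1.20), −log10 p (1.87) and the mean of a site's peaks (1.19), and was -7.11 among all peaks of a library. Leaving out 1 library gave from -1.81 to 1.58 points, positive without P0 A (1.58) and without P8 B (0.129). The difference to gene-body sites was -3.93 with pileup, and the mean difference to gene-end sites kept its sign throughout (-34.2 to -5.95). With the mean of a site's peaks it was -6.52 (exact sign permutation test, p = 0.25), so it was not negative in every library.

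The limma calls, 1216, were 45 at an adjusted p under 0.01 (13 higher, 32 lower), 623 with peaks of −log10 q of at least 5, 2025 with −log10 p (1159 higher, 866 lower), 564 with the mean of a site's peaks and 2149 with median centring. Over all sites tested the calls, 3006, were 110, 1609, 5341, 1459 and 5497 in the same order, so they moved with those of the intergenic sites. Leaving out 1 library gave 0 to 1112 calls. In each of these fits the library left alone in its passage is assumed to vary like the libraries of the other passage. Of the 1216 calls, 803 were shared with the 1812 made on pileup (66.0% and 44.3% of each), 790 of them in the same direction. The cause of the changes in these counts was not tested.

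For the sites over tRNA genes the P8 minus P0 difference ranged from 6.54 to 14.99 points and for X against autosomes from -13.2 to -9.46, over settings added after the values were seen. No paired analysis was possible because the library names in the files do not carry the replicate numbers of the sample titles. Pileups of 6 to 11 tags at P8 limit the precision of single falls, and intervals for counting error were not computed since peaks were selected by height.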
